A study of Mus musculus with 6 samples.

Results

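The 10 genes described here move calcium out of the cytosol, hold it there, or release and refill the internal store, and were followed in ribosome-bound RNA of mouse cerebellar Purkinje neurons that carry or lack a functional Rbm17, a splicing factor gene. The 10 genes were taken as a given list of gene symbols: the endoplasmic reticulum pumps Atp2a2 and Atp2a3, the plasma membrane pumps Atp2b1, Atp2b2 and Atp2b3, the calcium buffers Calb1 and Pvalb, the release channel Ryr1, the store sensor Stim1 and the entry channel Orai2. They are 10 of the 23420 rows of the deposited gene count table, and all 10 passed the filter on low counts. The splice junctions that lie inside these genes on their own strand were read from the deposited junction files, which listed 641 of them.

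The RNA came from C57BL/6 mice 4 weeks old, with 1 cerebellum behind every library and 3 animals per genotype. All 6 animals carried the Pcp2-BacTRAP transgene, which tags ribosomes under the promoter of the Purkinje cell gene Pcp2, so that RNA bound to those ribosomes can be pulled down. The 3 control animals carried Pcp2-BacTrap with Rbm17 f/+ (1 floxed and 1 wild-type allele, no Cre). The 3 conditional knockout animals, called cKO here, carried Pcp2-BacTRAP, Pcp2-Cre and Rbm17 f/-, so Cre and the null allele were present in that group alone. The effects of Cre, of the null allele in all cells and of recombination in Purkinje cells cannot be told apart in this design.

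Purkinje cells fire continuously and receive large calcium signals in their dendrites, and they are known for unusually high amounts of calcium pumps and buffers. SERCA pumps (the Atp2a genes) move calcium from the cytosol into the endoplasmic reticulum, and PMCA pumps (the Atp2b genes) move it out of the cell. Calbindin (Calb1) and parvalbumin (Pvalb) bind calcium in the cytosol with different speeds. Ryanodine receptors release calcium from the store, and when the store empties, STIM proteins in its membrane open ORAI channels in the plasma membrane. PMCA transcripts are spliced alternatively at site A, in the first cytosolic loop of the pump, and at site C, in the carboxyl-terminal tail, and Atp2a3 transcripts are spliced alternatively near their 3′ end.

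The libraries held 140110897 to 160571518 counts on genes and 73457422 to 83976095 reads across splice junctions, of which 97.9% to 98.5% lay on introns annotated in GENCODE M21. Rbm17 stood at 41.2, 42.5 and 41.3 CPM (counts scaled to library size, with TMM factors) in the control libraries and at 25.7, 25.6 and 26.3 CPM in the cKO libraries, a log2 fold change of −0.69 (SE 0.09, adjusted p = 0.0016, edgeR quasi-likelihood test with Benjamini-Hochberg adjustment over all genes). Of 17 Purkinje marker genes, 7 fell and 0 rose by this test at an adjusted p under 0.05, by which 3.85% of all genes tested fell and 4.03% rose. The median log2 fold change of these markers was −0.44, and their summed level was 23099.8 to 30775 CPM in control and 12985 to 15219.8 CPM in cKO. Of 12 granule cell markers and 11 interneuron markers 0 passed the test in either direction, with summed levels of 4539.8 to 6459 against 3842 to 6401 CPM and of 783 to 905 against 756 to 812 CPM (at unadjusted p under 0.05, 1 granule marker fell and 0 interneuron markers moved). Of 11 astrocyte and Bergmann glia markers 1 rose and 2 fell (5027 to 5700.2 against 3907 to 4519.7 CPM summed). Of 12 microglia markers 6 rose and 0 fell (42.8 to 66.5 against 89.9 to 154 CPM summed), and no marker in any list was at 0 in all libraries. In such bulk RNA, fewer cells of a type and less RNA per cell cannot be told apart, and the part of these marker shifts in the results that follow was not tested.

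Of the 10 calcium genes 5 fell in the cKO libraries, 0 rose and 5 did not pass the test (edgeR quasi-likelihood test, adjusted p under 0.05), against 7.87% of all genes called in either direction. At unadjusted p under 0.05, 6 fell and 0 rose. The genes that fell were both SERCA pumps (Atp2a2 and Atp2a3), 1 of the 3 PMCA pumps (Atp2b2) and both buffers (Calb1 and Pvalb). Over all 16067 genes tested, 3.85% fell and 4.03% rose by the same rule. In 6 of the 10 genes every cKO library was below every control library, against 13.4% of all genes, and in 0 every cKO library was above, against 15% of all genes. The median log2 fold change of the 10 genes was −0.50 and that of all genes tested was 0.01.

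**Figure D1:**
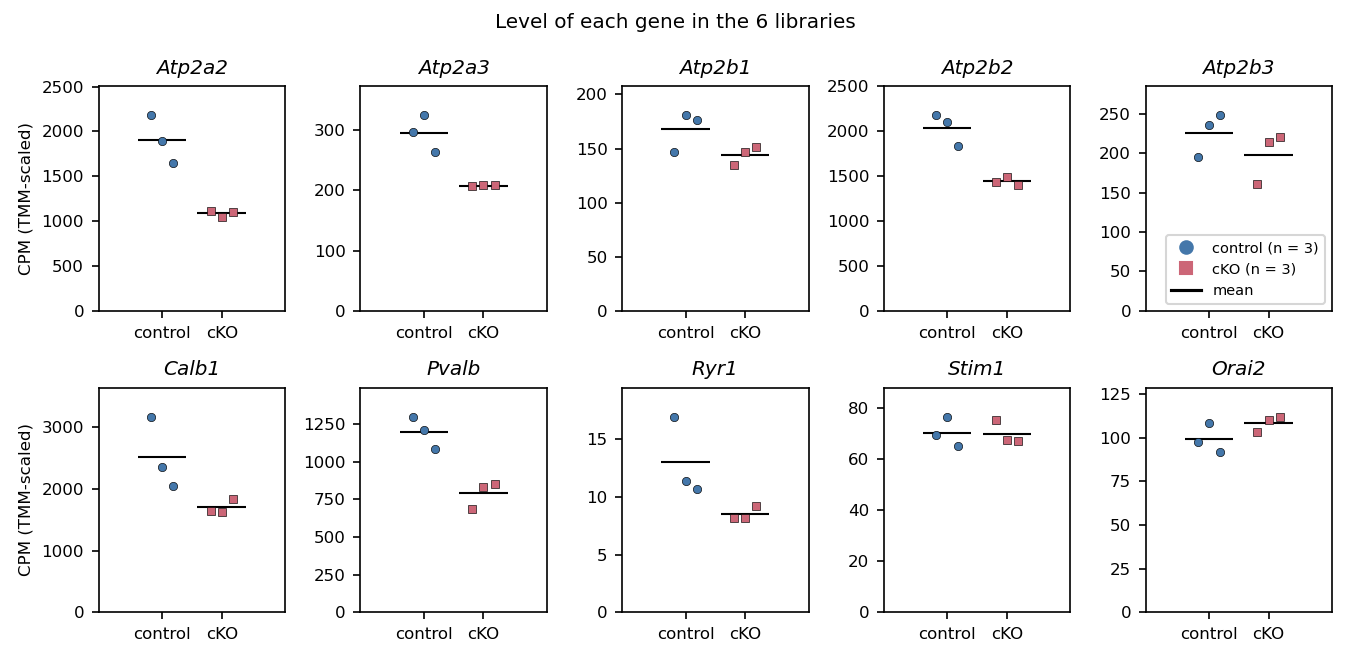
Level of the 10 genes in CPM (TMM-scaled counts, linear axes from 0, own scale per gene) in the 3 control (circles) and 3 cKO libraries (squares), with horizontal bars at the means. Both SERCA pumps, Atp2b2, Calb1, Pvalb and Ryr1 show no overlap between the genotypes, while Atp2b1, Atp2b3, Stim1 and Orai2 overlap.

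Atp2a2, which encodes SERCA2, the main store pump of Purkinje cells, showed the largest fall of the 10. Its level was 2179.6, 1894 and 1645 CPM in control libraries 1 to 3 and 1115, 1052 and 1097 CPM in cKO libraries 1 to 3. The control libraries differed among themselves more than the cKO libraries did, and the lowest control value stood well above the highest cKO value. The log2 fold change was −0.81 (SE 0.11, adjusted p = 0.0018, edgeR), which is 57.1% of the control level. Atp2a3, which encodes SERCA3, stood at 296, 324 and 263 CPM in control and at 207, 208 and 208 CPM in cKO. The 3 cKO values were nearly equal and all below the control values. Its log2 fold change was −0.50 (SE 0.09, adjusted p = 0.011, edgeR). The call for Atp2a3 was lost without control replicate 2 or without cKO replicate 3.

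Among the plasma membrane pumps, Atp2b2 (PMCA2) was the most abundant per length and the 1 that fell. It stood at 2176, 2097 and 1831 CPM in control and at 1439, 1489 and 1404 CPM in cKO, with no overlap. The log2 fold change was −0.49 (SE 0.09, adjusted p = 0.0093, edgeR), and this call too was lost without control replicate 2 or without cKO replicate 3. Atp2b1 (PMCA1), the broadly expressed pump, had 147, 181 and 177 CPM in control and 135, 147 and 151 CPM in cKO. Its groups overlapped, and the log2 difference of −0.22 (95% interval −0.42 to −0.02) had an unadjusted p of 0.057 and an adjusted p of 0.244 by edgeR. Atp2b3 (PMCA3), a neuronal pump, had 194, 235 and 248 CPM in control and 160.2, 214 and 220.1 CPM in cKO, a log2 difference of −0.19 (95% interval −0.45 to 0.08, adjusted p = 0.473, edgeR). Whether Atp2b2 fell more than the other PMCA genes was not tested. The 3 intervals of the PMCA genes overlap: that of Atp2b2 ran from −0.67 to −0.32.

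Both calcium buffers fell. Pvalb, which besides Purkinje cells is known from molecular layer interneurons, stood at 1298, 1211 and 1087 CPM in control and at 687, 832 and 853 CPM in cKO. The groups did not overlap, and the log2 fold change was −0.60 (SE 0.11, adjusted p = 0.0089, edgeR). Calb1, in the cerebellum a Purkinje cell gene, stood at 3165, 2358 and 2046 CPM in control and at 1647, 1621 and 1840.3 CPM in cKO. Control library 1 lay far above the other two, and the gap between the lowest control and the highest cKO library was small beside the spread of the controls. The log2 fold change of Calb1 was −0.57 (SE 0.14, adjusted p = 0.039, edgeR). This call was lost without control replicate 2 and without any single cKO library, with adjusted p values up to 0.120 over the 14 alternative fits, so it is less firm than those for Atp2a2 and Pvalb, which passed in all 14.

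The genes of store release and store refilling showed no call. Ryr1, the ryanodine receptor best known from skeletal muscle and expressed in Purkinje cells, was at 16.9, 11.3 and 10.7 CPM in control and at 8.18, 8.12 and 9.17 CPM in cKO. The groups did not overlap, but the log2 difference of −0.61 had an SE of 0.18 and an adjusted p of 0.075 by edgeR, and 1 of the 14 alternative fits (DESeq2) placed it under the threshold. Control library 1 was the highest, and without it the log2 difference was −0.38. Skeletal muscle markers were near the detection limit: 5 of 7 passed the filter, 0 of them changed (0 at unadjusted p under 0.05), and their summed level was 2.33 to 3.14 CPM in control and 2.64 to 4.75 CPM in cKO. Stim1 was at 69.6, 76.7 and 65.3 CPM in control and at 75.5, 67.6 and 67.4 CPM in cKO. Its log2 difference was −0.01 with a 95% interval of −0.20 to 0.18, so a change of a size within these bounds remains possible. Orai2, which encodes a pore subunit of the store-operated entry channel, had 97.8, 108 and 91.5 CPM in control and 103, 110.1 and 112 CPM in cKO. The groups overlapped, and the log2 difference was 0.13 (95% interval −0.05 to 0.31, adjusted p = 0.481, edgeR).

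Levels of different genes were compared only per length, as CPM per kilobase of annotated exon. In control libraries the order from high to low was Pvalb at 1152 ± 102 (SD, n = 3), Calb1 at 521 ± 119, Atp2a2 at 313 ± 44.0, Atp2b2 at 161.3 ± 14.3, Atp2a3 at 55.7 ± 5.74, Atp2b3 at 46.8 ± 5.78, Orai2 at 16.3 ± 1.40, Atp2b1 at 11.04 ± 1.21, Stim1 at 6.80 ± 0.56 and Ryr1 at 0.594 ± 0.156 CPM per kilobase. The neighbours Atp2a3 (49.9 to 61.3) and Atp2b3 (40.3 to 51.4) overlapped in their range over the control libraries, and no other pair of neighbours did. Which neighbours separate depends on the length used: per kilobase of the longest transcript, Orai2 at 24.9 ± 2.13 and Atp2b1 at 23.6 ± 2.59 were within the spread. In cKO the same pair stood at 39.3 ± 0.05 for Atp2a3 and 41.1 ± 6.82 for Atp2b3 CPM per kilobase, again within the spread. So the buffers and the pumps of the Atp2a2 and Atp2b2 genes headed the list in both genotypes, at 759.6 ± 87.1 for Pvalb, 351 ± 24.8 for Calb1, 179 ± 5.32 for Atp2a2 and 114 ± 3.41 for Atp2b2 CPM per kilobase in cKO.

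A further list held 70 genes of calcium transport, buffering, store release and mitochondrial uptake, of which 67 passed the filter. Of these 67, 9 fell, 0 rose and 58 did not pass the test (edgeR, adjusted p under 0.05 over all genes, by which 3.85% of all genes fell), with a median log2 difference of −0.14. At unadjusted p under 0.05, 16 fell and 0 rose. Of the pumps and exchangers 1 of 15 fell, and of the buffers and sensors 4 of 16.

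Among buffers and sensors, the neuronal calcium sensors Hpca (hippocalcin) and Hpcal1 (its close relative, also named VILIP-3) fell furthest. Hpca went from 310, 239 and 235 CPM in control to 130, 152 and 153 CPM in cKO (log2 fold change −0.85, SE 0.12, adjusted p = 0.0027, edgeR). Hpcal1 went from 1089.9, 939 and 861 CPM to 495, 579.9 and 572 CPM (log2 fold change −0.81). Pcp4, a small Purkinje cell protein that binds calmodulin, fell by 0.51 and the calmodulin gene Calm3 fell by 0.33 on the log2 scale. The call for Calm3 was lost in 5 of 14 alternative fits, with an adjusted p up to 0.147 (edgeR), and that for Pcp4 in 1. Calm2, which also encodes calmodulin, had a log2 difference of −0.39 (adjusted p = 0.055, edgeR) and was not called. Calb2, the third classical buffer gene and a granule cell gene in the cerebellum, had a log2 difference of −0.19 with overlapping groups.

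Of the store channels and their partners, 2 of 19 fell. Orai3, which encodes another pore subunit of store-operated entry channels, fell by 0.58 on the log2 scale, whereas Orai2 (0.13) and Orai1 (−0.29) overlapped between genotypes. Itpr1, the IP3 receptor that dominates release in Purkinje cells, had 4552, 2915 and 2623 CPM in control and 2047, 2073 and 2354 CPM in cKO. Its groups did not overlap, but the first control library again lay far above the others and the adjusted p was 0.055 by edgeR. Ryr2 and Ryr3, the other ryanodine receptors, had log2 differences of −0.18 and 0.35 and were not called.

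In the store lumen 1 of 8 genes fell. It was Asph, whose locus encodes aspartyl hydroxylase and the store membrane proteins junctin and junctate, at 342, 354 and 336 CPM in control and 193, 219.5 and 204 CPM in cKO (log2 fold change −0.74, SE 0.09, adjusted p = 0.0009, edgeR). The gene count does not separate those products. The calcium-storing proteins Casq2 and Calr had log2 differences of −0.46 and −0.39 (adjusted p = 0.067 and 0.075, edgeR), not called, with no overlap between groups. Of 9 mitochondrial uptake genes 1 fell: Micu3, a regulator of the uniporter, by 0.48 on the log2 scale (a call lost without cKO replicate 3), while the pore gene Mcu differed by −0.01. Among pumps and exchangers, Nptn (neuroplastin), a partner subunit of the PMCA pumps, fell by 0.45, a call lost in 4 of 14 alternative fits (adjusted p up to 0.116, edgeR). None of the sodium-calcium exchangers Slc8a1, Slc8a2 and Slc8a3 was called by edgeR, with log2 differences of −0.15, 0.02 and 0.15.

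**Figure D2:**
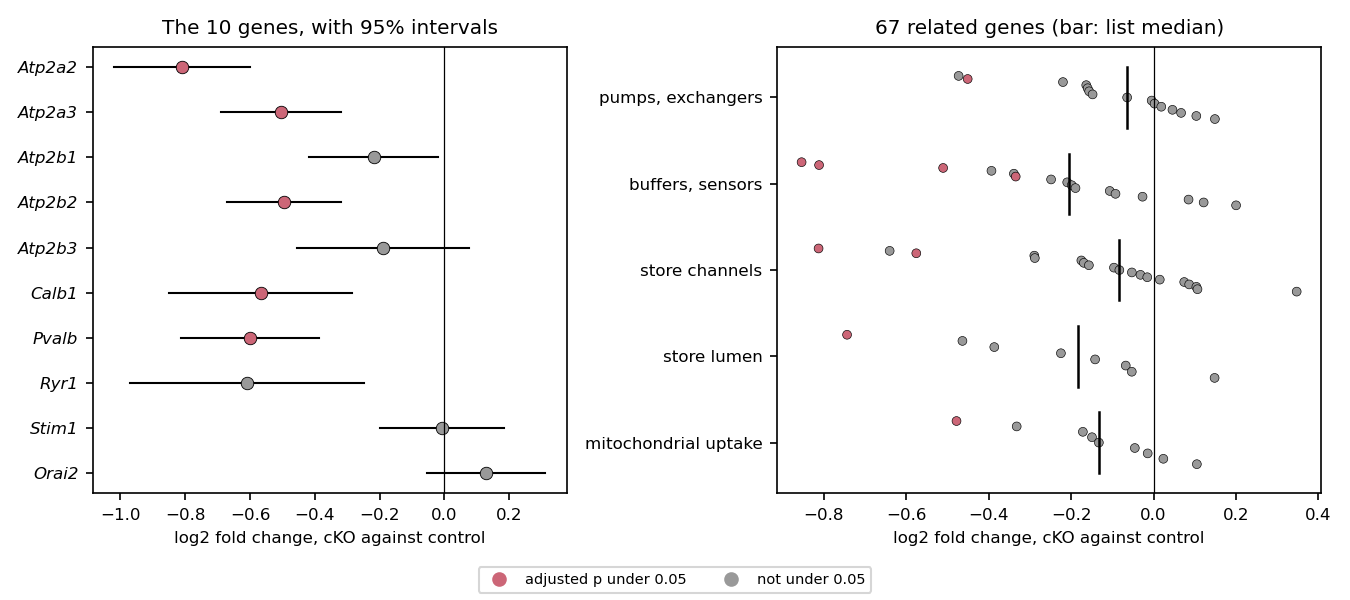
Log2 fold change in cKO against control (edgeR) for the 10 genes with 95% intervals (left) and for the 67 related genes by list (right, 1 point per gene, black bars at list medians). Coloured points had an adjusted p under 0.05: 5 of the 10 genes and 9 of the 67, all on the negative side.

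In the 5 genes that fell, the median annotated junction was also lower in cKO, though not evenly along every gene. Junction reads were scaled to the library's junction total, and annotated junctions with a mean of at least 20 reads were kept. Of all 124487 such junctions 7.28% were lower and 14.4% higher in every cKO library than in every control library, and the median ratio of cKO to control was 1.06. In Calb1 all 10 annotated junctions were lower in every cKO library, with ratios between 0.710 and 0.735, so the fall was even along the transcript. In Atp2a2 20 of 21 were lower (median ratio 0.677), in Pvalb 3 of 3 (0.743), in Atp2b2 20 of 29 (0.815) and in Atp2a3 10 of 23 (0.783). Along Atp2a3 the ratios were uneven, at 0.866, 0.849, 0.995 and 0.925 with overlap at the 5′ end. Near its 3′ end, junctions with ratios of 0.689 and 0.709 were lower without overlap. In Ryr1 4 of 29 were lower and 25 overlapped, although its gene counts did not overlap. In Atp2b1 (24 junctions) and Atp2b3 (22 junctions) 0 were lower or higher without overlap, and in Stim1 1 of 15 and in Orai2 2 of 5 were higher. The median junction ratio of Orai2 was 1.32, whereas its gene count ratio was 1.09. Against the general fall, 4 junctions of Atp2b2 and 2 of Atp2a3 were higher in every cKO library, and all 6 lead into or out of alternative exons.

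**Figure D3:**
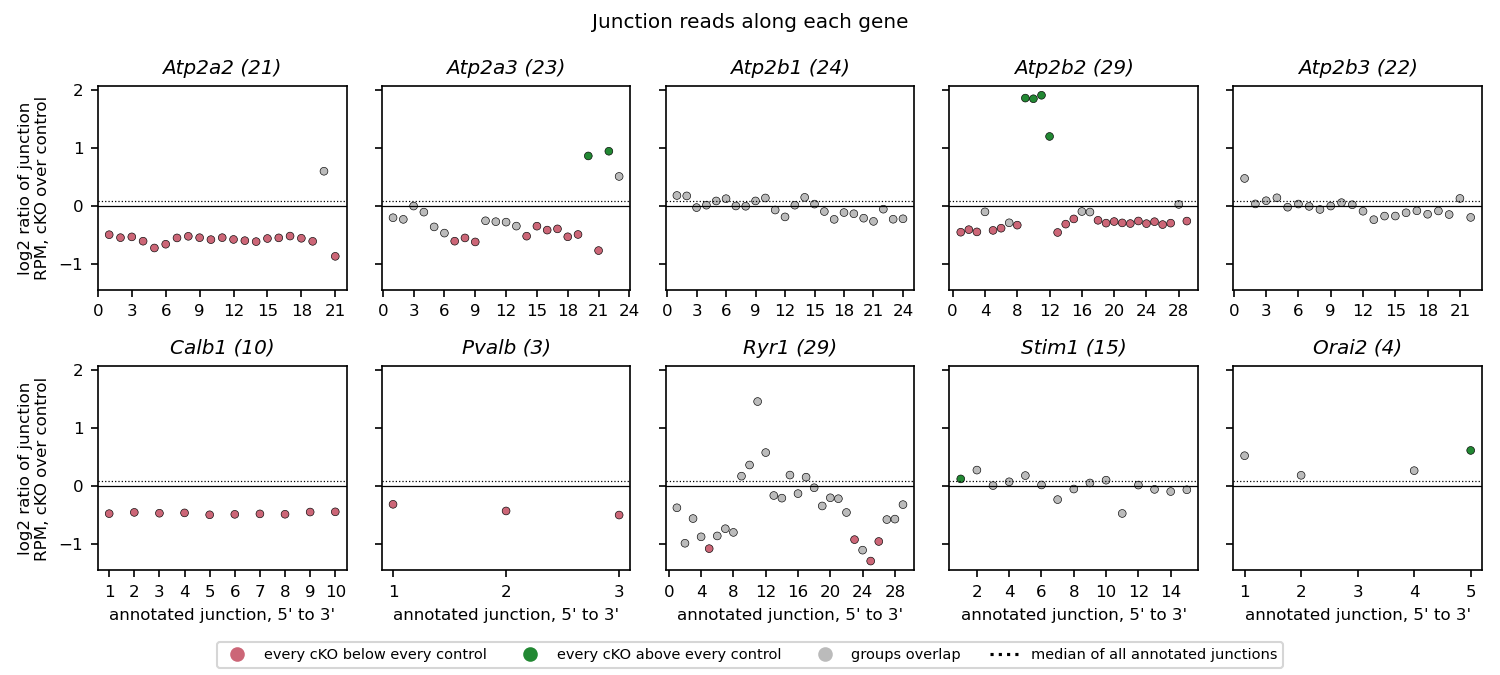
Log2 ratio of junction reads scaled to the library's junction total, cKO over control, for every annotated junction of the 10 genes in 5′ to 3′ order (number drawn in brackets, dotted line at the median of all annotated junctions). The points of Calb1 form a flat line below 0, while Atp2b2 and Atp2a3 each show a small cluster far above the rest of the gene; 1 Orai2 junction without any control read has no ratio and is not drawn.

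Splicing itself was compared as the share a junction took of all junctions that share a donor or acceptor with it, directly or through another. Of the 641 junctions in the 10 genes 416 had at least 10 reads and 208 could be tested, in 35 groups. Of the 208, 5 (2.4%) rose by an adjusted p under 0.05 together with a gain of 5 percentage points of share, and 0 fell (edgeR diffSpliceDGE, adjusted over all 112047 junctions tested). Over all junctions 0.751% were called by this rule, 0.659% upward and 0.0928% downward. With limma diffSplice 3 of the 208 fell. The 5 lie in Atp2b2 (2), Atp2a3 (2) and Orai2 (1), and both pairs flank alternative exons, so they are not 5 separate events. By the adjusted p alone 14 of the 208 (6.73%) passed, 11 upward and 3 downward, against 2.27% of all junctions. Those 14 include a junction of Pvalb and a junction of Calb1 whose reads came almost wholly from a single library. Neither this rate nor that of the called junctions was matched for depth to all junctions. Calb1 had 203485 to 361325 and Pvalb 97530 to 149053 junction reads per library. In Ryr1 no 2 junctions that share an end both had 10 reads in total and reads in 2 libraries, so none of it could be tested.

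The events of Atp2b2 were at splice site A. Its 3 alternative exons, of 33, 60 and 42 bp, lie at chr6:113803747-113803779, chr6:113802486-113802545 and chr6:113797110-113797151 on the minus strand (GRCm38, GENCODE M21) and are all coding. Together they hold 135 bases, or 45 codons, so the annotated protein has 1243 codons with them (Atp2b2-202) and 1198 without. The form with all of them is known as PMCA2w and the form without as PMCA2z. The exons are shown because their inclusion differed most among the alternative exons of the PMCA genes, with the exon in capitals and 15 bases of each neighbouring exon in lower case, 5′ to 3′ along the transcript.
Atp2b2 exon of 33 bp: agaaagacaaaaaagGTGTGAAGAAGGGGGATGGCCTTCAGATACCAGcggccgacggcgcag
Atp2b2 exon of 60 bp: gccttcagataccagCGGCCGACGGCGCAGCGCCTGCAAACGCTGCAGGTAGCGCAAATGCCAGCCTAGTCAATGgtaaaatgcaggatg
Atp2b2 exon of 42 bp: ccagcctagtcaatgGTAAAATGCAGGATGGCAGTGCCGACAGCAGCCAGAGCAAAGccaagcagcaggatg

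Inclusion was the mean of both inclusion junctions over that mean plus all junctions that span the exon. The 33 bp exon was included at 3.13%, 3.24% and 4.51% in the control libraries and at 16.7%, 10.7% and 18.2% in the cKO libraries, a mean of 3.63% ± 0.77 against 15.2% ± 3.96 (SD, n = 3). Inclusion of the 60 bp exon was 3.86% ± 1.26 against 15.7% ± 4.83, and that of the 42 bp exon was 4.06% ± 1.03 against 12.1% ± 1.50. In all 3 exons every cKO library was above every control library, and cKO replicate 2 was the lowest of the cKO libraries. With 3 libraries against 3 a two-sided exact permutation test of inclusion cannot go below p = 0.1, so the test rests on the junction counts.

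The junction from the upstream constitutive exon into the 33 bp exon (chr6:113803780-113805460) had 71, 83 and 88 reads in control and 379, 198 and 354 in cKO, a share of 3.18% ± 0.44 against 10.5% ± 2.01 (adjusted p = 0.00017, edgeR diffSpliceDGE). The junction from the 33 to the 60 bp exon had 70, 78 and 100 reads against 401, 192 and 356 (adjusted p = 0.00017, edgeR diffSpliceDGE). Both rose in all 10 alternative fits. The junction from the 60 to the 42 bp exon had 34, 45 and 68 reads against 258, 116 and 213 and passed the adjusted p (0.0025, edgeR diffSpliceDGE) with a share change of 4.64 points, just under the 5 points asked for. The junction that skips all 3 exons had 2155, 2360 and 1954 reads in control and 1861, 1550 and 1520 in cKO and remained the main route in both genotypes (adjusted p = 0.201, edgeR diffSpliceDGE). So reads that join the alternative exons were more numerous in cKO in absolute terms, while the gene as a whole had fewer.

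At site C of Atp2b2 the groups overlapped. The 172 bp exon was included at 24.5% ± 1.07 in control and 23.7% ± 1.00 in cKO, and the 127 bp exon at 12.5% ± 0.82 and 12.5% ± 0.44. The latter value is not of the 127 bp form alone, since it rests mostly on the junction into the exon. The junction out of the 127 bp form had 139, 117 and 156 reads in control and 103, 176 and 159 in cKO. An unannotated junction from a donor inside this exon (chr6:113748849-113751635) had 1429, 1662 and 1201 reads in control and 1283, 1248 and 1108 in cKO, and was not called. The difference between sites A and C was not tested. In the paralogs, Atp2b3 included its own 42 bp exon of site A at 90.9% ± 4.60 in control and 94.2% ± 1.21 in cKO, and its 154 bp exon of site C at 76.9% ± 3.17 and 72.7% ± 2.96, with overlap. Atp2b1 included the 154 bp exon of site C at 74.5% ± 1.50 and 72.1% ± 2.09, again with overlap, where the junction into the exon is shared with a shorter 87 bp form. The junction out of the 154 bp form had 572, 796 and 705 reads in control and 528, 620 and 713 in cKO, and that out of the 87 bp form had 78, 154 and 164 against 90, 111 and 154. An unannotated junction (chr10:99019430-99022807) from a donor 2 bases before that of the 154 bp form had 135, 167 and 200 reads in control and 132, 111 and 141 in cKO, and was not called. The 42 bp exons of Atp2b2 and Atp2b3 match at 27 of 42 bases when laid side by side without gaps, and the Atp2b3 exon is shown for that comparison (chrX:73533885-73533926, plus strand).
Atp2b3 exon of 42 bp: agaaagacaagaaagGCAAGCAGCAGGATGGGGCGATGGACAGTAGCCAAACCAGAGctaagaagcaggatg

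A second event of Atp2b2 went the other way and was nearly complete. An unannotated junction (chr6:113759023-113759122) ends 4 bases downstream of the main acceptor of a 108 bp coding exon, exon 18 of Atp2b2-201. It had 337, 410 and 353 reads in the control libraries and 0, 3 and 3 reads in the cKO libraries. As a percentage of this junction plus the main one it went from 3.06% ± 0.23 to 0.020% ± 0.017 (SD, n = 3; adjusted p of the share in its group 2.23e-14, edgeR diffSpliceDGE), and it passed the adjusted p in all 10 alternative fits. Its share of the whole group changed by −1.35 points, under the 5 points of the call rule. The main junction had 11610, 12096 and 11091 reads in control and 9505, 9751 and 10246 in cKO. A further unannotated acceptor, 15 bases downstream of the main one in the same exon, stayed in use: 779, 895 and 745 reads in control and 657, 651 and 647 in cKO, 6.49% ± 0.35 and 6.22% ± 0.26 of this junction plus the main one. Leaving out 15 bases removes 5 codons, whereas leaving out 4 bases shifts the frame, and in Atp2b2-201 a stop codon then stands directly at the join, after 998 codons in place of 1198. The first 30 bases of the exon are shown with the 4 bases that this junction leaves out in capitals.
Atp2b2 start of the 108 bp exon: ATAGtgatcgtgcagtttggcgggaagccc
This junction was chosen for description after its values were seen.

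Atp2a3 included more of the alternative exon before its last exon. The exon has an annotated 73 bp form at chr11:72989475-72989547 and an 86 bp form that runs 13 bases further, on the plus strand (GRCm38). The 73 bp form, which gives 1038 codons in Atp2a3-201 against 999 when the exon is skipped, is shown with 15 bases of each neighbour in lower case.
Atp2a3 exon of 73 bp: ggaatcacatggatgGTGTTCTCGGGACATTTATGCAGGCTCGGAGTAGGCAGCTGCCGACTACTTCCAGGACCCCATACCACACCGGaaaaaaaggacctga
Its inclusion was 11.7%, 15.1% and 7.86% in control and 30.6%, 28.4% and 30.4% in cKO, a mean of 11.6% ± 3.64 against 29.8% ± 1.19 (SD, n = 3), with no overlap. The junction into the exon had 176, 258 and 108 reads in control and 332, 321 and 373 in cKO (share 11.6% against 24.9%, adjusted p = 0.023, edgeR diffSpliceDGE), and the junction out of the 73 bp form had 123, 201 and 80 against 280, 242 and 287 (share 8.63% against 19.6%, adjusted p = 0.031). The junction that skips the exon had 1127, 1286 and 1102 reads in control and 694, 708 and 757 in cKO, so skipping was still the main route. These 2 calls are less firm than those of Atp2b2: the first passed in 5 and the second in 4 of 10 alternative fits, and both were lost without control replicate 1 or 3 and without any single cKO library. Both forms share the junction into the exon, so the inclusion above is not of the 73 bp form alone. The junction out of the 86 bp form had 29, 23 and 30 reads in control and 61, 18 and 46 in cKO, with overlap, so a rise of that form was not seen in every cKO library.

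Further upstream in Atp2a3, an unannotated junction (chr11:72983546-72988969) that skips 2 coding exons of 134 and 118 bp had 3, 3 and 0 reads in control and 34, 40 and 11 in cKO (adjusted p = 0.040, edgeR diffSpliceDGE, lost in 5 of 10 alternative fits, share change 1.26 points). Together these exons hold 252 bases, or 84 codons. Inclusion of the first was 99.9% ± 0.12 in control and 97.4% ± 1.37 in cKO, and that of the second 99.8% ± 0.19 and 97.0% ± 1.68, without overlap.

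Atp2a2 also had an exon-skipping junction that was more frequent in cKO. The 336 bp coding exon 14 of Atp2a2-201 (chr5:122460641-122460976, minus strand), which holds 112 codons, was skipped by an unannotated junction with 0, 11 and 12 reads in control and 89, 87 and 80 in cKO. The share of this junction was 0.032% ± 0.028 against 0.473% ± 0.067 (adjusted p = 0.0014, edgeR diffSpliceDGE, passed in 9 of 10 alternative fits), and exon inclusion stayed above 98.9% in every library. A second unannotated junction (chr5:122455976-122457302) had 107, 133 and 97 reads in control and 451, 264 and 413 in cKO, a share of 1.73% ± 0.17 against 8.93% ± 1.05. The groups did not overlap, but the adjusted p was 0.194 (edgeR diffSpliceDGE).

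In Calb1 exon skipping was rare and more frequent in cKO. An unannotated junction that skips exon 7 (56 bp, chr4:15900769-15900824, plus strand) had 0 reads in every control library and 91, 69 and 82 in the cKO libraries (adjusted p = 0.028, edgeR diffSpliceDGE, passed in 3 of 10 alternative fits). Counting every junction that spans the exon, skipping of exon 7 was 0.393% in control and 0.857% in cKO. The exon is not a multiple of 3 bases long. Without exon 7 the frame of Calb1-201 meets a stop codon 30 bases after the join, for 160 codons in place of 261. The exon is shown in capitals with 15 bases of its neighbours.
Calb1 exon 7: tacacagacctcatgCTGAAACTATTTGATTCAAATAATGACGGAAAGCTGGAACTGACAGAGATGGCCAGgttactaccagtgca

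Calb1 also contained reads of an exon that the annotation lacks, 129 bp long at chr4:15884305-15884433 in the second intron. The junction into it had 4, 12 and 0 reads in control and 113, 102 and 157 in cKO (adjusted p = 0.049, edgeR diffSpliceDGE, passed in 3 of 10 alternative fits), and the junction out of it had 49, 46 and 16 against 135, 158 and 223. Its inclusion was 0.08% ± 0.04 in control and 0.70% ± 0.06 in cKO, so over 99% of Calb1 junction reads at this place followed the annotated route in both genotypes. These events are a small share of a very abundant transcript and are seen at 203485 to 361325 Calb1 junction reads per library.

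Most constitutive exons of the 10 genes kept overlapping inclusion, and those that did not were lower in cKO. Of 150 annotated exons with a pooled inclusion of at least 95% and at least 20 informative reads, 14 (9.33%) had a lower inclusion in every cKO library than in every control library and 0 a higher one. Over all 109206 such exons 2.04% were lower and 0.308% higher. These genes are deep, with a median of 845 informative reads per exon against 209 over all such exons. With at least 500 informative reads the counts were 14 of 90 exons against 4.84% of 28565 exons for lower inclusion, and 0 of 90 against 0.637% for higher inclusion. The exons of the 10 genes were still deeper there, with a median of 2291 against 988.5 informative reads, so depth is not matched. The 14 exons lay in Calb1 (8 of 9), Atp2b2 (3 of 21), Atp2a3 (2 of 19) and Atp2a2 (1 of 20), and neighbouring exons skipped by 1 junction are not separate events. Among exons with a pooled inclusion of 5% to 95%, 6 of 14 were higher and 0 lower in every cKO library, against 10.9% and 17.9% of 7671 exons. Depth is not matched here either, with a median of 1369 informative reads for the 14 against 162 over all such exons. The 6 higher exons are the 3 exons of Atp2b2 site A, both forms of the Atp2a3 exon and a 63 bp exon of Orai2. They are not 6 separate events: the 86 bp form of the Atp2a3 exon is counted only through the junction it shares with the 73 bp form. The Orai2 exon is counted through the junction on its downstream side, and its inclusion change was 0 when the smaller of both inclusion junctions was used.

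**Figure D4:**
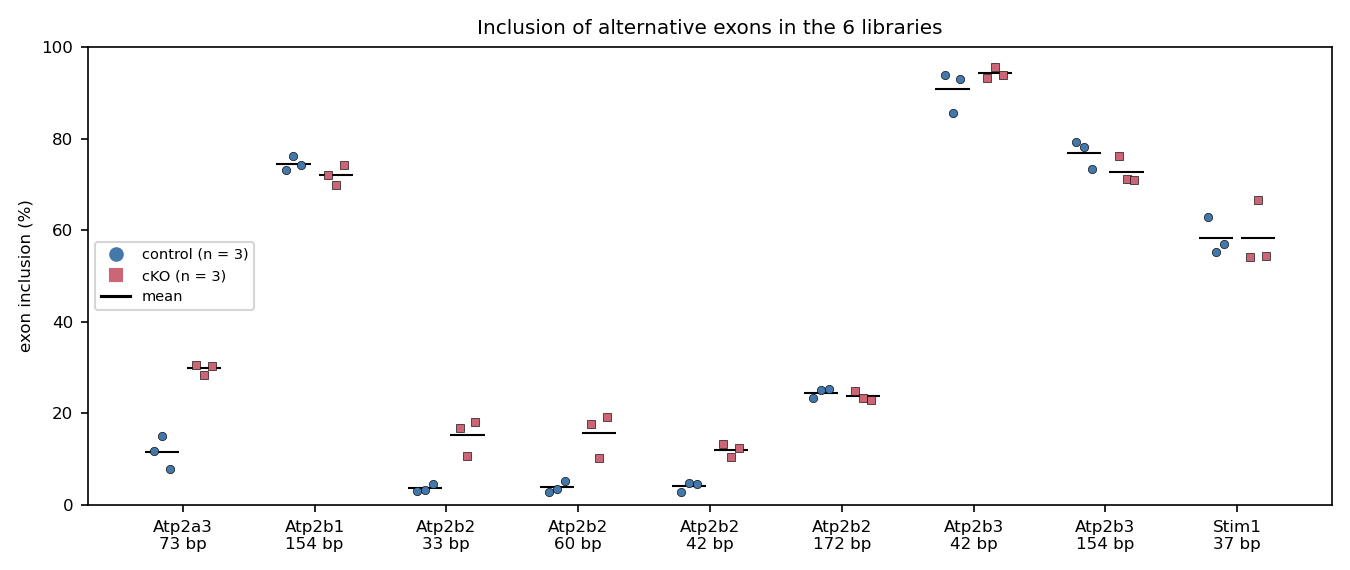
Inclusion in percent of the wholly coding alternative exons of the 10 genes in the 3 control (circles) and 3 cKO libraries (squares), with bars at the means; exons of a gene are in 5′ to 3′ order, and of forms that share the junction into the exon the one with the higher inclusion is drawn. The Atp2a3 exon and the 33, 60 and 42 bp exons of Atp2b2 are higher in every cKO library, and the others overlap.

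Orai2, whose gene count did not pass the test, had a junction seen in the cKO libraries alone. This annotated junction (chr5:136161725-136167824, minus strand) had 0 reads in each control library and 87, 13 and 49 in the cKO libraries, a share of 15.8% ± 12.6 (adjusted p = 0.00011, edgeR diffSpliceDGE, passed in all 10 alternative fits). A neighbouring unannotated junction (chr5:136161725-136162269) with the same acceptor had 1, 0 and 0 against 28, 19 and 20 reads, a share of 0.224% against 7.34%, and was not called (adjusted p = 0.076, edgeR diffSpliceDGE). The annotated route from the first exon to the same acceptor had 61, 86 and 87 reads in control and 86, 90 and 121 in cKO. Orai2 had only 305 to 760 junction reads per library, so the shares are coarse and the 3 cKO libraries differed widely.

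**Figure D5:**
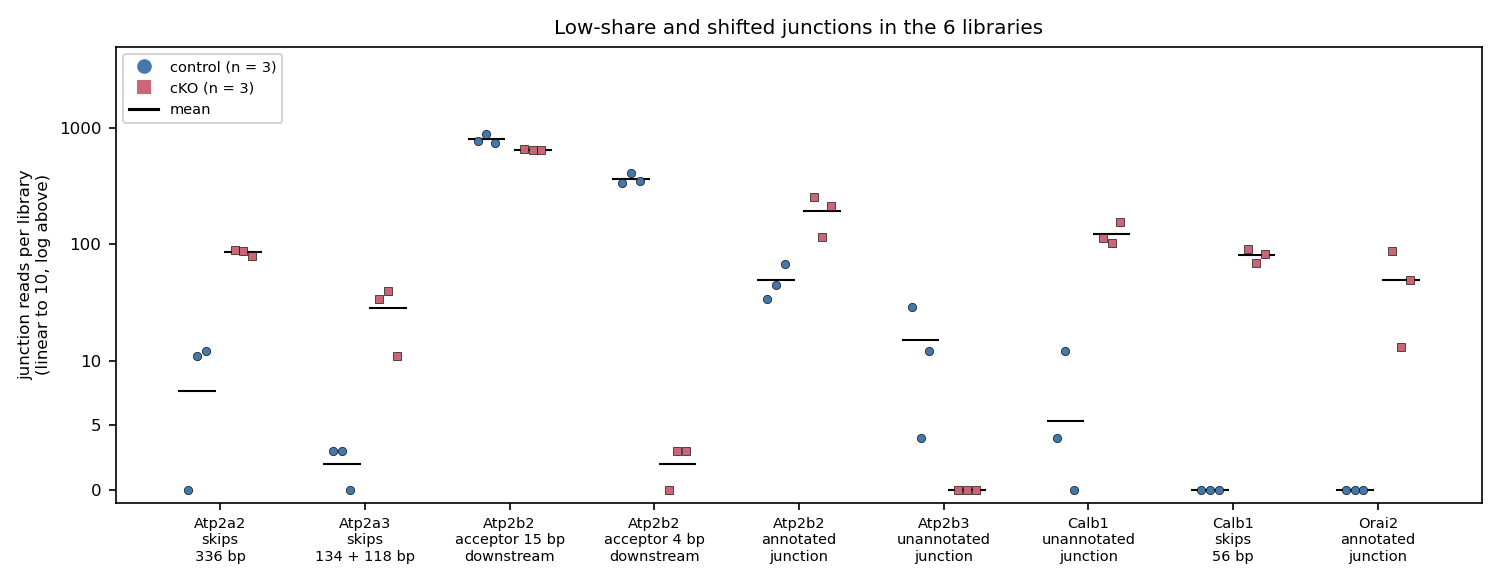
Reads per library for junctions that passed the adjusted p at a low share, the called Orai2 junction and the acceptor 15 bp downstream in Atp2b2 for comparison (axis linear to 10 reads and logarithmic above; circles control, squares cKO, bars means). Junctions with at least 10 reads in only 1 library are not drawn, which leaves out a Pvalb and a Calb1 junction that passed the adjusted p. The skipping junctions of Atp2a2, Atp2a3 and Calb1 sit at 0 to 12 reads in control and 11 to 91 in cKO, and the acceptor 4 bp downstream in Atp2b2 goes from 337 to 410 reads down to 0 to 3.

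Stim1 had 8 junctions tested and 0 called (0 also at unadjusted p under 0.05, edgeR diffSpliceDGE). Its 37 bp alternative exon was included at 58.3% ± 3.97 in control and 58.4% ± 7.10 in cKO. Atp2b1 had 11 tested and 0 called (0 at unadjusted p under 0.05). Atp2b3 had 23 tested and 0 called, with 1 junction under the adjusted p alone: an unannotated junction with 29, 4 and 12 reads in control and 0 in every cKO library (adjusted p = 0.029, edgeR diffSpliceDGE, passed in 4 of 9 alternative fits). Pvalb had 1 junction under the adjusted p alone, but 570 of its reads came from cKO library 1, with 0 and 3 in the other cKO libraries, and it was lost without that library. Likewise, a Calb1 junction (chr4:15882014-15885586) under the adjusted p alone had 3, 301 and 3 reads in control and 1, 0 and 0 in cKO, and was lost without control replicate 2. Such single-library junctions occurred in both genotypes: 15 unannotated junctions of the 10 genes had at least 100 reads in 1 library and under 10 in each of the rest, and 7 of the 15 were highest in a control library.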

How the data were processed

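Ribosome-bound RNA of 6 libraries was sequenced after amplification with a kit that does not mark strand, per the labels' protocols, so reads of a gene and of an overlapping antisense gene cannot be told apart in the counts. The authors deposited a table of raw read counts per gene and, for each library, a list of splice junctions with their read counts. TopHat2 2.1.0, HTSeq 0.6.0 and mm10 are named in the submitters' processing notes, and the gene annotation used for counting is not given in the sources used here. Exons and sequences were taken from GENCODE M21 (GRCm38).

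Genes were filtered with filterByExpr, scaled by TMM and tested with the quasi-likelihood test of edgeR 4.0.16 (R 4.3.3) with Benjamini-Hochberg adjustment over all 16067 genes. Intervals are the estimate ± 1.96 SE, a normal approximation that can be narrower than the edgeR test implies. That of Atp2b1 has both bounds on the negative side although its unadjusted p was 0.057 by edgeR. Junctions needed 10 reads in total and reads in 2 libraries, and were grouped by shared donor or acceptor and tested with diffSpliceDGE on the whole table. A call needed an adjusted p under 0.05 together with 5 percentage points of change in share. The alternatives used other scalings and filters, DESeq2 1.42.0, limma 3.58.1, the ribosomal row Rn45s left out (9.56% to 13.5% of counts), a replicate block and each library left out. Both scripts were tested on simulated data. Depth is given in the report, and intervals cover the spread between animals only as far as 3 per group allow.

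The members and all gene lists were chosen with earlier results of these data known. Named were all 10 members, from each related list the called genes (at most 4, by the smallest p), the called junctions, the unannotated junctions with a mean share of 5% or more and no library under 10 reads in the group where they are higher, and the alternative exons with an inclusion of 5% to 95%. The other genes, and the low-share junctions under the adjusted p alone, were named after their values were seen. Of the 70 related genes, 6 were matched through an older symbol. Of the gene rows, 27 have a name turned into a date and 4 a repeated name, and no listed gene is among them. Some items of the lists are not reported here.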

Additional observations from a re-analysis of the deposited data

How the results depend on the processing

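Over the alternatives, 14 for genes and up to 12 for junctions, Atp2a2 and Pvalb were called in all 14, Atp2b2 and Atp2a3 in 12 and Calb1 in 10. Of the 10 genes 2 to 5 fell when 1 library was left out, with 2 without control replicate 2 and 2 without cKO replicate 3. Over all genes DESeq2 called 1020 up and 1022 down, and leaving out 1 library gave 264 to 501 up and 238 to 555 down. The related genes that fell numbered 6 to 11 with 1 library left out. The log2 difference of Stim1 was 0.012 with upper quartile scaling and ran from −0.080 to 0.040 with 1 library left out, positive in 3 of those 6 fits (0.040 when control replicate 2 was left out, and 0.018 and 0.020 when cKO replicate 2 or 3 was).

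The junctions of the 10 genes called upward numbered 3 to 5 with 1 library left out, 3 at 10 points of share change and 11 by the adjusted p alone, and those called downward 3 with limma diffSplice and 3 by the adjusted p alone. Over all junctions the count was 2190 with limma diffSplice, 436 at 10 points, 2539 by the adjusted p alone and 516 to 697 with 1 library left out. The share of an unannotated Atp2b2 junction (chr6:113748849-113751635) changed by −0.53 to 0.43 points with 1 library left out, against −0.05 with all libraries. With the smaller of both inclusion junctions the inclusion change of the 63 bp Orai2 exon was 0. Beyond fewer samples or the rule itself, the cause was not tested.

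Equal replicate numbers did not deviate together (r = 0.04, −0.06 and 0.02), so they were not taken to pair the animals. With the replicate block 814 genes were called up and 920 down, 5 of the 10 genes fell, 14 related genes fell, and 777 junctions were called, 5 of them in the 10 genes.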
